A study of Mus musculus with 10 samples.

Results

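Axon guidance ligands and receptors are described here in the right atrium of adult mice, with 4 control mice and 6 Tbx5 mutant mice by the labels. The members were chosen by gene symbol, with earlier results of these data known. Every semaphorin, plexin, neuropilin, Slit, Robo, netrin, Unc5, ephrin and Eph symbol in the count table was taken, which gave 68 genes of the 23337 listed. They comprise 35 ligands (20 semaphorins, 3 Slits, 4 netrins and 8 ephrins) and 33 receptors (9 plexins, 2 neuropilins, 4 Robos, 4 Unc5 receptors and 14 Eph receptors). Of the 68, 53 had enough reads to be tested and 15 did not.

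RNA from the right atrium of each mouse was sequenced as 1 library per mouse. The study asked which genes depend on Tbx5, a T-box transcription factor required for atrial development and rhythm. Mutant mice carried floxed Tbx5 alleles (Tbx5 fl/fl) with R26CreERt2, and control mice carried R26CreERt2 alone. All mice were of mixed strain, were given tamoxifen and were killed a week after it as young adults, with ages given both as 8-10 weeks and as 6-8 weeks in the labels. CreERt2 was expressed from the ubiquitous Rosa26 locus, so excision was not limited to heart muscle cells and the mutants are not a cell-type-specific model.

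Guidance cues were named for steering growing axons, and the same ligand and receptor pairs act widely outside the nervous system. Semaphorins signal through plexins, with neuropilins as co-receptors for the secreted class 3 semaphorins. Slits bind Robo receptors, netrins bind Dcc, neogenin and Unc5 receptors, and membrane-bound ephrins bind Eph receptor tyrosine kinases on neighbouring cells, where signals can run in both directions. In the heart these families are known for roles in septation, outflow tract and valve formation, vessel patterning and the guidance of cardiac nerves.

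Total counts ran from 5703775 to 7095141 per library. In mutant M3 38.91% of counts fell on Rn45s, a ribosomal RNA precursor, which left 3484550 counts outside it, against 0.268% to 1.49% in the other 9 libraries. Tbx5 itself was higher in the mice labelled mutant, at 394 ± 83.3 CPM (SD, n = 6) against 205 ± 17.8 (n = 4), where CPM is the count in a library of scaled size 1e6. The floxed allele loses a single exon and counts over the whole gene include exons outside it, so the gene count does not test the excision, and it goes against the labels. The atrial gene Sln was lower in the mice labelled mutant, with no overlap (log2 fold change -0.98). In each of the 4 control mice Xist and the Y-linked gene Ddx3y also went against the labelled sex, while in the 6 mutant mice they matched it. By these genes, mice of either labelled sex taken alone were control mice set against mutant mice of the opposite sex. Group and sex names below are therefore those of the labels. The atrial genes Myl4, Myl7, Nppa and Sln were abundant in both groups, and the ventricular gene Myl2 averaged 4.53 CPM in control and 19.4 CPM in mutant.

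Of the 53 tested members, 11 were called different between the labelled groups and 42 were not. A call required an adjusted p below 0.05 in edgeR's quasi-likelihood test over all 13084 genes tested (Benjamini-Hochberg), a fold change over 1.5, and a mean normalized signal over 1 in control. The 11 called members are 20.8% of those tested, beside 15.7% of all tested genes. Called lower were 8 members (Epha4, Epha3, Slit3, Slit2, Efnb3, Sema6c, Plxnb3 and Ntn3), beside 7.16% of all genes called lower, and called higher were 3 (Epha2, Ephb2 and Sema3b), beside 8.5%. In 13 tested members the CPM of the groups did not overlap, 9 of them lower and 4 higher in mutant, beside 22.7% of all tested genes. The median log2 fold change, mutant over control, was -0.12 over the tested members and 31 were below 0, beside a median of -0.005 over all tested genes.

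The split between lower and higher calls changed when the trend of each library on transcript length was removed. Across 12951 genes the log2 fold change had a Spearman correlation of -0.32 with the length of the longest transcript, given as a description since genes of the same libraries are not independent. The members were long, with a median of 4976 bases over all 68, tested or not, against 3469 for all tested genes. With each library's length trend removed, 13 members were called, 6 lower and 7 higher, beside 14.3% of all tested genes (6.5% lower and 7.84% higher), and 9 were called both ways. The higher calls were then 53.8% of members called, against 27.3% without the correction. Ntn3 and Slit2 were no longer called, and Nrp2, Robo1, Sema5a and Unc5b were called higher. The median log2 fold change of the tested members became -0.01.

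**Figure D1:**
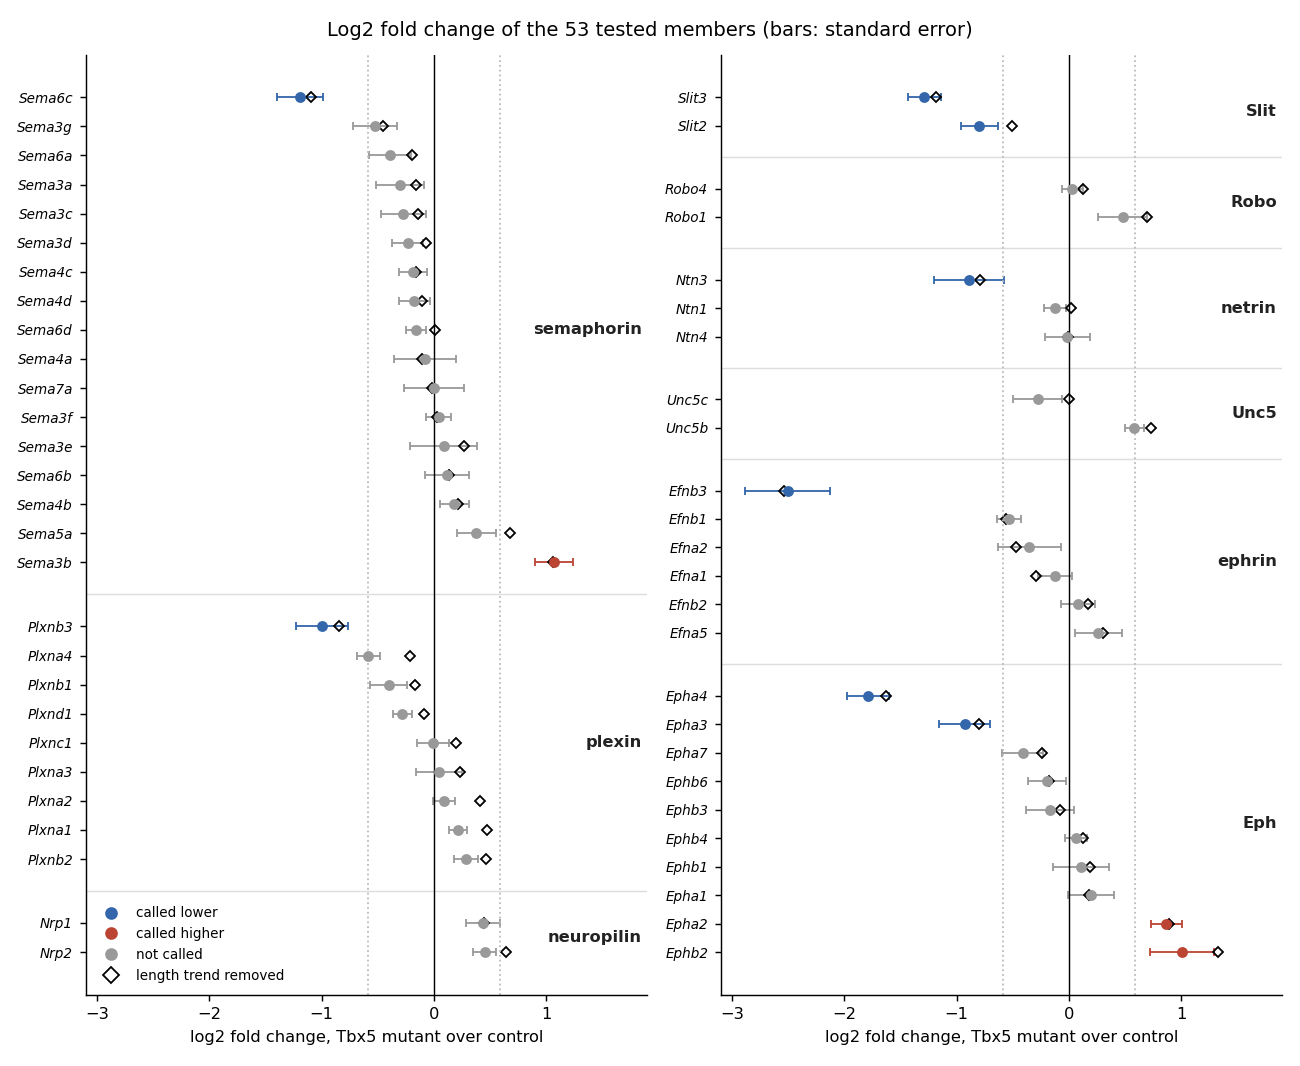
Log2 fold change, mutant over control, of the 53 tested members by family, with 1 standard error (filled circles; dotted lines at a 1.5-fold change), and the same with each library's transcript length trend removed (open diamonds). Efnb3 and Epha4 lie furthest below 0 and Sema3b and Ephb2 furthest above it, and most diamonds lie to the right of their circles.

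Genes marking other cells of the atrium also moved between the groups. In the mice labelled mutant all 5 markers of dividing cells were called higher, with a summed level of 71.1 to 240 CPM against 11.5 to 26.1 in control. Of 7 leukocyte markers, 4 of the 5 tested were called higher, with sums of 533 to 784 against 323 to 531 CPM. Among 8 endothelial markers only Vwf was called, higher, at 1194 CPM in control and 1941 in mutant. It carried most of the rise of the endothelial sum, which was 2818 to 3754 against 1859 to 2944 CPM. Emcn and Egfl7 were also higher and passed the adjusted p at a fold change under 1.5 (log2 fold change 0.55 and 0.31). Pecam1 (0.23) and Cldn5 (-0.35) did not pass it. Tek, Tie1 and Cdh5 had mutant means near those of control (226 and 231, 117 and 116, and 135 and 126 CPM). Of 7 fibroblast markers Col1a1 (162 CPM in control and 400 in mutant) and Col1a2 (391 and 892.5) were called higher. They carried most of the rise of the fibroblast sum, which was 3589 to 4959 against 2928 to 3729 CPM. Dcn was level, at 1885 CPM in control and 1870 in mutant. Pdgfra went the other way, from 207 ± 23.2 to 156 ± 21.7 CPM, and passed the adjusted p at a fold change under 1.5. Of 7 smooth muscle and pericyte markers Tagln and Acta2 were called higher, with sums of 408 to 820 against 362 to 436 CPM, carried mostly by Acta2 (72.4 CPM in control and 287 in mutant). The pericyte marker Abcc9 went the other way, from 107 ± 9.80 to 71.6 ± 7.04 CPM with no overlap, and passed the adjusted p at a fold change under 1.5. Of 7 heart muscle cell markers Myl7, Nppa and Sln were called lower and Tnnt2 and Actc1 higher.

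Markers of the nerve supply went the other way. Of 6 Schwann cell markers 4 were tested and Mbp, a myelin protein gene, was called lower, with sums of 44.7 to 51.4 CPM in mutant against 68.5 to 91.0 in control. Of 8 neuron markers only Dbh and Stmn2 had enough reads to be tested. Dbh, which encodes the enzyme that makes noradrenaline, was called lower and carried most of the neuron sum of 11.8 to 14.4 CPM against 35.0 to 45.1, while Slc18a3 was at 0 in every library. The part of any of these shifts in the guidance gene values was not tested, and in bulk tissue fewer cells of a type and less RNA per cell cannot be told apart. Of 5 epicardial markers edgeR, DESeq2 and limma each called 0, with 0 at an unadjusted p below 0.05 in edgeR. No adipocyte marker of 3 had enough reads to be tested. Of 4 lymphatic markers only Prox1 was called, lower. The other lymphatic markers did not follow it, with log2 fold changes of -0.11 for Lyve1, 0.001 for Flt4 and 0.39 for Pdpn.

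Eph receptors held the most calls, 4 of 10 tested, and they ran in both directions. Epha4, a receptor that binds ephrins of both the A and the B class, was the most abundant of all members in control. Its CPM was 592, 759, 931 and 877 in control M1, M2, F1 and F2, and ran from 144 through a median of 222 to 298 in the 6 mutant mice. Every mutant library lay below every control library. Its mean fell from 790 ± 150 CPM (SD, n = 4) to 229 ± 58.3 (n = 6), a log2 fold change of -1.79 with a standard error of 0.18 (edgeR quasi-likelihood adjusted p = 1.5e-05), and the exact two-sided permutation p over the 210 splits of the mice was 0.00952, the smallest these group sizes allow. Epha4 lies on chr1:77367185-77515088, minus strand (mm10, GENCODE M21).

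Epha3, which binds mainly A-class ephrins, fell from a much lower level. Its CPM was 15.9, 10.6, 12.7 and 11.4 in control M1, M2, F1 and F2 and 4.46 to 10.97 in mutant, with a median of 5.65. Mutant M1 lay inside the control range and the other mutant libraries below it. Its log2 fold change was -0.93 with a standard error of 0.22 (edgeR quasi-likelihood adjusted p = 0.00692). This call was lost in mice labelled male alone, where it was -0.81 and where the groups differed in sex by Xist and Ddx3y.

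Epha2 and Ephb2 rose. Epha2, an Eph receptor of epithelial and endothelial cells, had 10.0, 10.3, 11.9 and 14.6 CPM in control M1, M2, F1 and F2 and 17.7 to 25.1 in mutant, with a median of 21.8. The groups did not overlap. Its log2 fold change was 0.87 with a standard error of 0.14 (edgeR quasi-likelihood adjusted p = 0.000505).

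Ephb2, a receptor of B-class ephrins, had few reads, 9 to 22 in the control libraries and 15 to 47 in the mutant libraries. Its CPM was 3.14, 3.47, 1.41 and 2.30 in control M1, M2, F1 and F2 and 2.57 to 6.41 in mutant, with a median of 5.40. Mutant M1 stood apart from the other mutant mice, inside the control range. The log2 fold change of 1.01 with a standard error of 0.28 (edgeR quasi-likelihood adjusted p = 0.0158) was not called without control F1 (0.81), in mice labelled male alone (0.54), or with the replicate number as a block (0.98).

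The other 6 tested Eph receptors were not called. Ephb4, the receptor of venous endothelium, had 144 ± 14.0 CPM in control and 150 ± 15.1 in mutant, with a log2 fold change of 0.07 that went slightly below 0 in mice labelled male and with the block. Epha7, Epha1, Ephb1, Ephb3 and Ephb6 had log2 fold changes between -0.41 and 0.20. Epha6 and Epha8 had no read in any library, Epha10 had a single read in all, and Epha5 had 0 to 6 reads per library. A count of 0 in these libraries allows a level of up to 0.423 to 0.526 CPM on total counts (3 reads, counting error only). On the scaled library size used for CPM elsewhere, 3 reads in mutant M3 are 0.817 CPM.

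Because Epha4 was so abundant, the summed Eph level followed it. The 14 Eph genes summed to 1016 ± 133 CPM in control and 460 ± 69.9 in mutant. Without Epha4 the sums were 227 ± 17.4 and 231 ± 15.8 CPM. Epha4 made up 70.3% to 81.6% of Eph CPM in the control mice and 41.1% to 56.0% in the mutant mice.

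**Figure D2:**
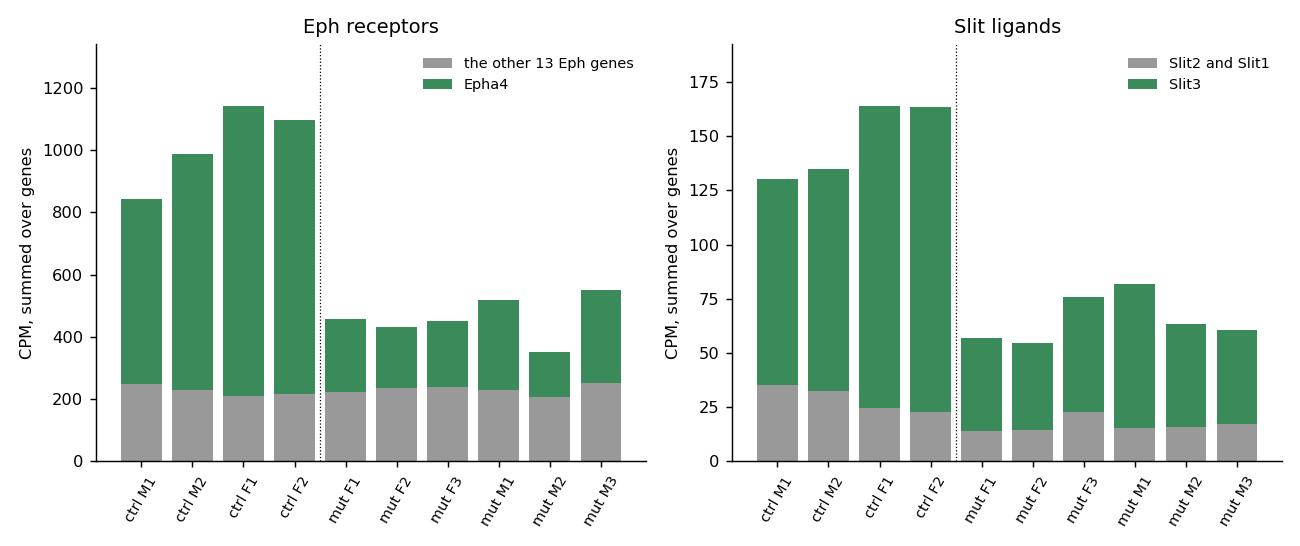
Summed CPM per mouse (ctrl, mice labelled control; mut, mice labelled Tbx5 mutant) of the Eph receptor genes, split into Epha4 (green) and the other 13 (grey), and of the Slit genes, split into Slit3 (green) and the others (grey). The grey Eph part stays between 206 and 253 CPM in the 10 mice while the green part shrinks in the mutant mice, and the green Slit part is shorter in every mutant mouse, while the grey Slit parts of mutant F3 and control F2 are alike.

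The starts of Epha4 and Epha2, which moved in opposite directions, and of Sema6c were read from the promoter sequences. The sequences are RefSeq, GRCm38.p6 (the assembly of mm10), each 120 bases long and written 5′ to 3′ on the strand of the gene. The Epha4 and Epha2 windows end at the base before the RefSeq transcription start and overlap no annotated gene of GENCODE M21. The Sema6c window is 250 to 131 bases before a RefSeq start that lies within the longer annotated Sema6c gene, so that it is intronic there and overlaps no exon. Capitals mark a match to a T-box core motif, and no match lies in the other 2 windows.
Epha4, chr1:77515089-77515208, minus strand: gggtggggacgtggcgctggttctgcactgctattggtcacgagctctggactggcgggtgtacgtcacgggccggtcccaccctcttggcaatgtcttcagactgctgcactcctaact
Epha2, chr4:141301101-141301220, plus strand: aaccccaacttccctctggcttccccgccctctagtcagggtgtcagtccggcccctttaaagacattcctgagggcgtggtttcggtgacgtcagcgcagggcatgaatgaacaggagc
Sema6c, chr3:95164089-95164208, plus strand: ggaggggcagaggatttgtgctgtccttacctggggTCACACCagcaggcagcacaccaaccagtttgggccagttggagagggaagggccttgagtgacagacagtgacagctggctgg

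The motifs searched were overlapping parts of the core that T-box factors bind. They were AGGTGTG, which reads CACACCT on the other strand, and GGTGTGA, which reads there as TCACACC. Both strands were searched from 250 bases before to 50 after each RefSeq start. Of 32851 promoters, 8.41% held either motif. RefSeq promoters were matched for 59 members (75 promoters), and 7 of the 75 (9.33%) held either motif. Among the called members 10 promoters of 9 genes were matched and 1 held a motif, that of Sema6c, at 214 to 208 bases before the start. A match is a description of the letters in this window, not a binding site.

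Ephrins, the ligands of Eph receptors, had 1 call among 6 tested, and it was the largest log2 fold change of any tested member. Efnb3, a transmembrane ephrin, had 9.57, 17.9, 19.4 and 33.4 CPM in control M1, M2, F1 and F2, and 1.42 to 7.57 in mutant with a median of 3.10. The control mice were widely spread, yet the lowest of them lay above the highest mutant, M2. The mean fell from 20.1 ± 9.90 CPM (SD, n = 4) to 3.53 ± 2.14 (n = 6), a log2 fold change of -2.51 with a standard error of 0.37 (edgeR quasi-likelihood adjusted p = 0.000264). Efnb3 (chr11:69554092-69560205, minus strand) made up 14.1% to 40.0% of the CPM of the 3 B-class ephrins in control and 3.11% to 13.2% in mutant.

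Efnb1 passed the adjusted p at a fold change below 1.5. It had 32.9, 26.8, 37.5 and 33.4 CPM in control M1, M2, F1 and F2, and 19.9 to 24.0 in mutant with a median of 23.4, and the groups did not overlap. Its log2 fold change was -0.54 with a standard error of 0.11 (edgeR quasi-likelihood adjusted p = 0.00204). Efnb2, the arterial ligand of Ephb4, had 23.9 ± 4.84 CPM in control and 25.1 ± 3.85 in mutant, and the groups overlapped. Efna1 had 26.8 ± 2.33 and 24.8 ± 5.98 CPM, again overlapping, and Efna2 and Efna5 were not called. Efna3 had 1 read in each of 2 control libraries and none elsewhere, and Efna4 had 3 to 6 reads per library.

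Both tested Slit ligands fell, while edgeR, DESeq2 and limma called neither of the 2 tested Robo receptors, of which Robo1 had an unadjusted p below 0.05 in edgeR. Slits are large secreted proteins that repel axons and migrating cells through Robos. Slit3 had 95.02, 103, 139 and 141 CPM in control M1, M2, F1 and F2, and 40.1 to 66.2 in mutant with a median of 45.4. The groups did not overlap. The mean fell from 119 ± 23.9 CPM (SD, n = 4) to 48.9 ± 9.60 (n = 6), a log2 fold change of -1.29 with a standard error of 0.15 (edgeR quasi-likelihood adjusted p = 3.6e-05). Slit3 lies on chr11:35121224-35708507, plus strand.

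Slit2, the paralog of Slit3, had 34.7, 31.9, 24.1 and 22.1 CPM in control M1, M2, F1 and F2, and 13.4 to 22.4 in mutant with a median of 15.1. Mutant F3 lay just above the lowest control mouse and the other 5 mutant mice lay below all controls. This gave a log2 fold change of -0.80 with a standard error of 0.16 (edgeR quasi-likelihood adjusted p = 0.00237). It was not called with the length trend removed, where it was -0.51, or in mice labelled female alone, where it was -0.46. Slit1 had 1 to 5 reads per library.

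In control mice the levels of the 2 Slits ran in opposite order, Slit3 being higher in F1 and F2 and Slit2 in M1 and M2. Summed over the family the Slits had 148 ± 17.9 CPM in control and 65.5 ± 10.9 in mutant, and Slit3 made up 73.0% to 86.1% of it in control and 69.9% to 80.9% in mutant.

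Of the Robos, Robo4, the Robo of endothelium, had 22.5 ± 0.98 CPM in control and 23.0 ± 1.59 in mutant. Its log2 fold change was 0.03 with a standard error of 0.09, and leaving out a single library turned its sign in 1 of 10 cases, to -0.0005 without mutant M1. Robo1, the widely expressed receptor of Slit2 and Slit3, had 9.70 ± 3.64 and 13.4 ± 2.04 CPM with overlapping groups, a log2 fold change of 0.48 with a standard error of 0.21 (edgeR quasi-likelihood adjusted p = 0.106). It was called higher with the length trend removed, at 0.70, in mice labelled female alone, at 1.07, and without control M1, at 0.67, and was -0.01 in mice labelled male alone. Robo2 had 0 to 8 reads per library and Robo3 0 to 4.

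**Figure D3:**
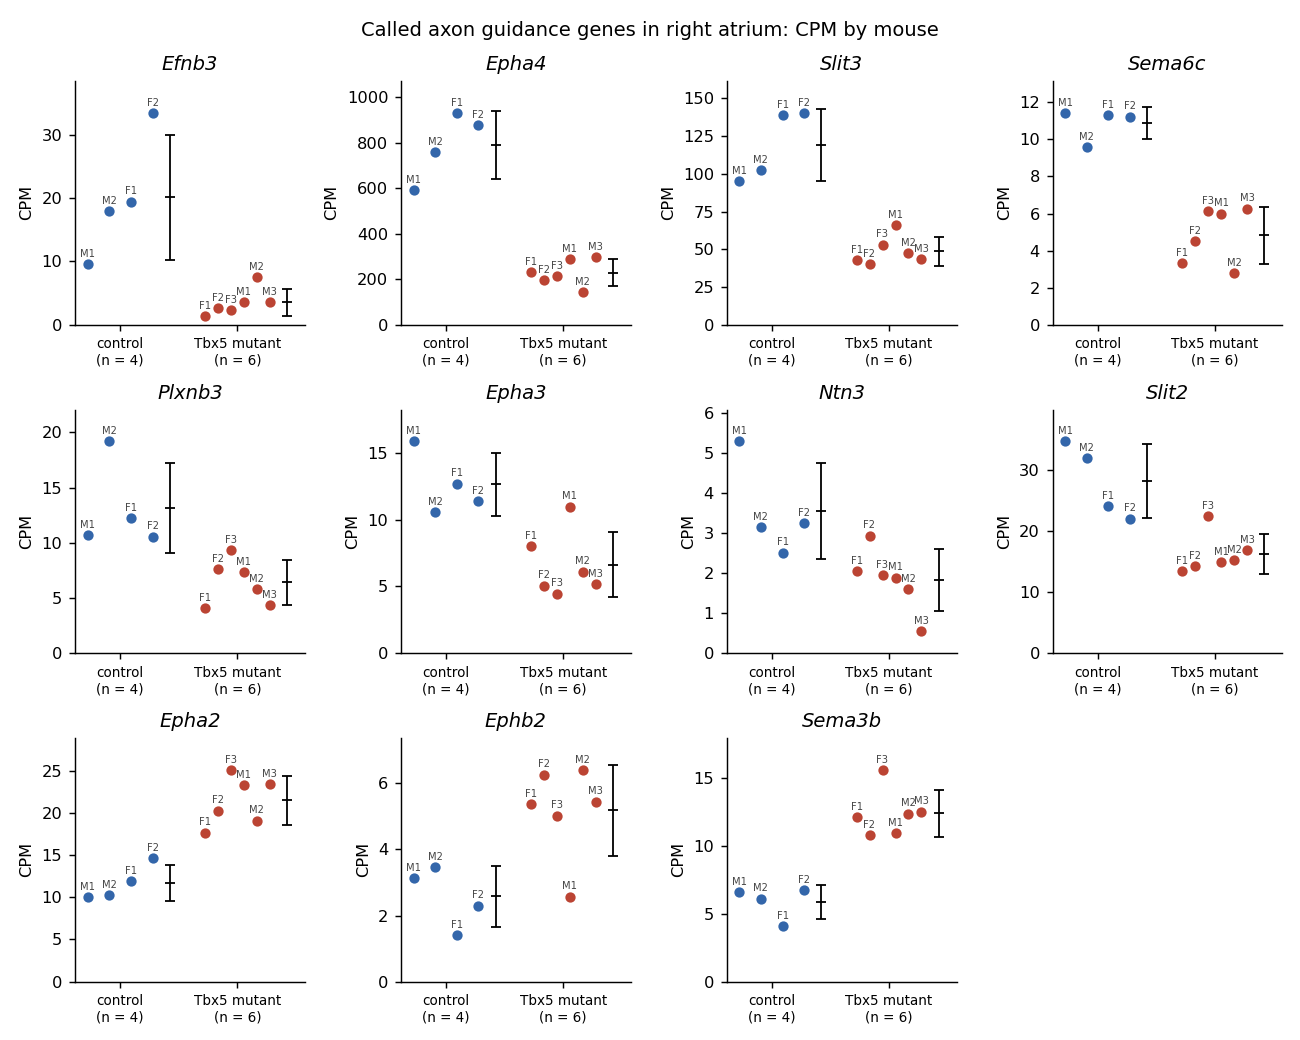
CPM of the 11 called members in each mouse, labelled by its replicate name, in the labelled control and Tbx5 mutant groups, with the mean and SD of each group beside the points. Each vertical axis starts at 0, and the groups do not overlap for Efnb3, Epha4, Slit3, Sema6c, Plxnb3, Epha2 and Sema3b.

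Semaphorins, the largest family of ligands, had 2 of 17 tested members called, in opposite directions. Sema6c, a transmembrane semaphorin, had 11.4, 9.60, 11.3 and 11.2 CPM in control M1, M2, F1 and F2, and 2.77 to 6.26 in mutant with a median of 5.26. The groups did not overlap. Its log2 fold change was -1.19 with a standard error of 0.21 (edgeR quasi-likelihood adjusted p = 0.000809), and the call was lost in mice labelled male alone, where the log2 fold change was -1.115 and the adjusted p 0.0645. Sema6c lies on chr3:95160457-95174024, plus strand.

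Sema3b, a secreted class 3 semaphorin that signals through neuropilins, rose. It had 6.57, 6.12, 4.08 and 6.77 CPM in control M1, M2, F1 and F2, and 10.8 to 15.6 in mutant with a median of 12.3, with no overlap. Between the groups its log2 fold change was 1.07 with a standard error of 0.17 (edgeR quasi-likelihood adjusted p = 0.000351). Sema3b lies on chr9:107597674-107609229, minus strand.

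The semaphorin with the highest level per kilobase was Sema6d, a transmembrane ligand with roles in heart development. It had 109 ± 8.83 CPM in control and 97.7 ± 8.47 in mutant with overlapping groups, and its log2 fold change was -0.16 with a standard error of 0.09. Sema5a was at 31.8 ± 5.51 and 41.1 ± 10.3 CPM, a log2 fold change of 0.38 that reached 0.68 and was called with the length trend removed. Of the 7 class 3 semaphorins tested, Sema3g, a vascular ligand, had groups that did not overlap, 12.5 to 14.6 CPM in control and 5.31 to 11.8 in mutant, but its adjusted p was 0.0538 in edgeR's quasi-likelihood test. It was called lower by limma and without mutant F1 or M2. The 15 tested semaphorins that were not called had log2 fold changes from -0.53 to 0.38. Sema4f, Sema4g and Sema5b had 0 to 3, 2 to 17 and 0 to 3 reads per library.

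Plexins, the semaphorin receptors, had 1 call among 9 tested. Plxnb3 had 10.7, 19.2, 12.2 and 10.6 CPM in control M1, M2, F1 and F2, and 4.10 to 9.34 in mutant with a median of 6.598. The groups did not overlap, with control M2 well above the rest. It had a log2 fold change of -0.998 with a standard error of 0.23 (edgeR quasi-likelihood adjusted p = 0.00568), and it was not called in mice labelled female alone, where it was -0.68.

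Among the other plexins, 3 passed the adjusted p at a fold change under 1.5. Plxna4, a receptor of class 3 semaphorins in nerve and vessel, had 229, 252, 221 and 227 CPM in control M1, M2, F1 and F2, and 121 to 175 in mutant with a median of 156, with no overlap. Its log2 fold change of -0.58 with a standard error of 0.10 (edgeR quasi-likelihood adjusted p = 0.000706) fell just short of the fold threshold. It was called lower in 10 of 25 alternatives, limma and the replicate block among them, and was -0.22 with the length trend removed. Plxnd1, the endothelial receptor of Sema3e, had 131 to 153 CPM in control and 103 to 126 in mutant, a log2 fold change of -0.28 (edgeR quasi-likelihood adjusted p = 0.0206). It was -0.09 with the length trend removed, and it did not pass the adjusted p in 7 of 25 alternatives. Plxnb2, a receptor of class 4 semaphorins, went the other way, with 150 to 168 CPM in control and 157 to 227 in mutant, a log2 fold change of 0.29 (edgeR quasi-likelihood adjusted p = 0.0496), and it did not pass the adjusted p in 16 of 25 alternatives. The remaining 5 plexins did not pass the test.

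Both neuropilins passed the adjusted p at a fold change under 1.5 in edgeR, DESeq2 and limma alike, so that none of these called either. Both had higher means in mutant. Neuropilins are co-receptors of class 3 semaphorins and of vascular endothelial growth factor. Nrp1 had 390, 393, 320 and 259 CPM in control M1, M2, F1 and F2 and 382 to 614 in mutant, with a median of 437. A single mutant mouse, F3, lay below the highest control mouse. Nrp2 had 48.7, 53.1, 47.0 and 44.9 CPM in control and 56.5 to 78.0 in mutant, with a median of 65.9, and these groups did not overlap.

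The log2 fold change of Nrp1 was 0.44 with a standard error of 0.15 (edgeR quasi-likelihood adjusted p = 0.044), and that of Nrp2 was 0.45 with a standard error of 0.10 (adjusted p = 0.0044). Nrp1 did not pass the adjusted p in 7 of 25 alternatives, among them leaving out control F1 or F2 or mutant M1, M2 or M3. With the length trend removed Nrp2 reached 0.64 and was called. Nrp1 made up 85.2% to 88.9% of neuropilin CPM in control and 84.8% to 90.6% in mutant. The summed endothelial markers, carried mostly by Vwf, had a higher range in the mutant mice that overlapped the control range, as given above, and their part in these values was not tested.

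Netrins had 1 call among 3 tested, in a gene with very few reads. Ntn1, the secreted laminin-related cue that acts through Dcc, neogenin and Unc5 receptors, had 216 ± 27.8 CPM in control and 198 ± 17.1 in mutant. The groups overlapped, and its log2 fold change of -0.12 with a standard error of 0.10 turned to 0.02 with the length trend removed. Ntn3 had 37, 19, 16 and 24 reads in control M1, M2, F1 and F2 and 2 to 22 in mutant, or 5.29, 3.14, 2.51 and 3.25 CPM against 0.545 to 2.93. The log2 fold change was -0.89 with a standard error of 0.31 (edgeR quasi-likelihood adjusted p = 0.0418), and it was not called in 14 of 24 alternatives. Exons of Ntn3 share 1.74% of their bases with Tbc1d24 on the same strand and 2.72% with BC028777 on the other. Ntn4 was at 12.4 ± 3.86 and 12.2 ± 2.67 CPM, and Ntn5 had 0 to 2 reads per library.

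Unc5b, the netrin receptor of endothelium and the main Unc5 of these libraries, was higher in every mutant mouse. It had 67.4, 68.0, 61.5 and 58.3 CPM in control M1, M2, F1 and F2, and 81.1 to 104 in mutant with a median of 96.6. The groups did not overlap. The log2 fold change was 0.58 with a standard error of 0.09 (edgeR quasi-likelihood adjusted p = 0.0003), just under the fold threshold, and it was called higher in 10 of 25 alternatives, DESeq2 among them. Unc5c had 4.80 ± 1.27 and 3.97 ± 0.78 CPM and did not pass the test. Unc5a had 1 to 17 reads and Unc5d 0 to 4 reads per library.

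**Figure D4:**
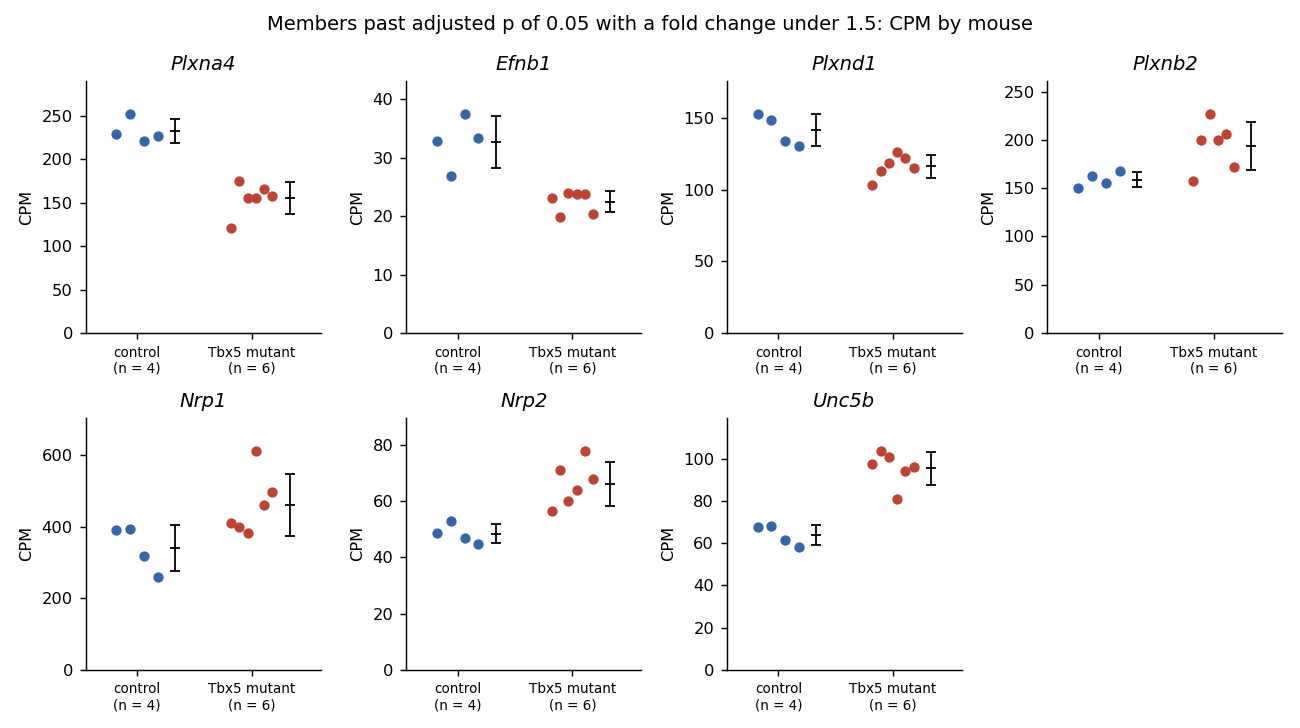
CPM per mouse, with the mean and SD of each labelled group, of the 7 members that passed the adjusted p with a fold change under 1.5. Plxna4, Efnb1 and Plxnd1 are lower and Plxnb2, Nrp1, Nrp2 and Unc5b higher in mutant, and the groups overlap for Plxnb2 and Nrp1.

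Levels of different members were compared per kilobase of the longest transcript. In control Epha4 (125 ± 23.7 CPM per kilobase) and Nrp1 (93.4 ± 17.5) ranked highest, with libraries that overlapped. Ntn1 (36.7 ± 4.73) and Ephb4 (33.1 ± 3.23) followed, also overlapping each other, and every Nrp1 library lay above every Ntn1 library. Next came Plxnb2 at 24.5 ± 1.22, Slit3 at 22.8 ± 4.57, Plxnd1 at 20.5 ± 1.59, Plxna4 at 18.04 ± 1.06, Sema6d at 17.0 ± 1.37 and Efna1 at 16.4 ± 1.42 CPM per kilobase. Each of these 6 overlapped its neighbour in the order. The steps from Ephb4 down to Plxnb2, and from Efna1 down to Unc5b at 10.9 ± 0.80, separated all control libraries.

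In the mutant mice Nrp1 ranked first at 126 ± 23.7 and Epha4 second at 36.1 ± 9.21 CPM per kilobase. Slit3 went from rank 6 to rank 12, at 9.35 ± 1.84. Ephb4 and Ntn1 were at 34.6 ± 3.47 and 33.7 ± 2.90, close to Epha4, and Unc5b moved from rank 11 to rank 7.

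**Figure D5:**
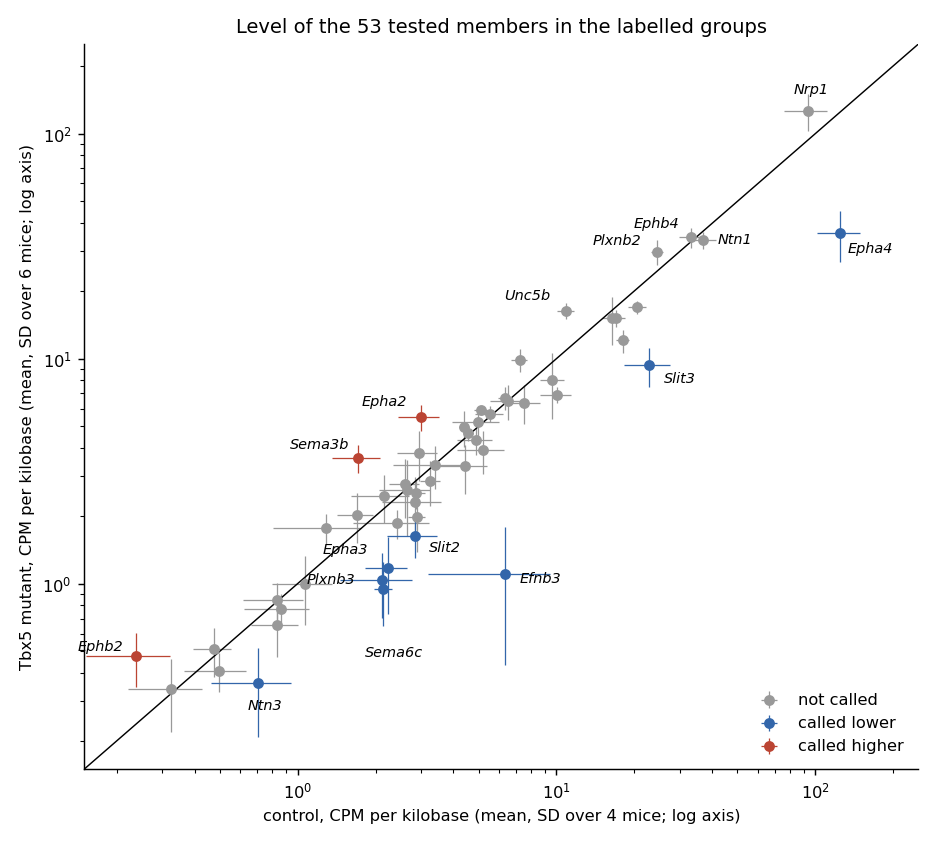
Mean CPM per kilobase of the longest transcript in mutant against control for the 53 tested members, both axes logarithmic, with SD bars and the line of equal level. Epha4, Slit3 and Efnb3 lie furthest below the line, and Epha2, Sema3b and Ephb2 above it.

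A list of 60 other genes of these pathways, co-receptors, adaptors and cytoplasmic effectors, had 51 tested and 13 called (25.5%, beside 15.7% of all tested genes), 9 lower and 4 higher. Their median log2 fold change was -0.07 and 30 of the 51 were below 0. Of 5 tested among the netrin receptors and repulsive guidance molecules, Neo1, or neogenin, fell from 232 ± 9.98 to 140 ± 16.2 CPM (log2 fold change -0.73), and Lrrc4, which encodes a netrin-G ligand, from 5.21 ± 0.98 to 3.35 ± 0.37 CPM (-0.65). Dcc had no reads in any library. Flrt1, of a family of Unc5 ligands, fell from 28.1 ± 3.76 to 6.41 ± 1.05 CPM, a log2 fold change of -2.16, and Flrt2 and Flrt3 were not called.

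Gpc1, a heparan sulfate proteoglycan that binds Slits, fell from 894 ± 144 to 379 ± 37.4 CPM, a log2 fold change of -1.24, and was the only call among 6 tested Slit-Robo partners. Among 17 tested semaphorin co-receptors and cytoplasmic partners 3 fell, Dpysl5 (-1.16), Chl1 (-0.85) and Farp2 (-0.74), and 2 rose, Rnd1 (1.42) and Rnd3 (0.97). Of 12 effectors shared by these pathways, the actin-binding LIM protein gene Ablim3 fell by 0.82 on the log2 scale, and Pak1, a kinase downstream of Rac, rose by 1.05. Nck2, an adaptor named after its value was seen, rose by 0.60. Of the 8 tested ephrin-Eph partners edgeR, DESeq2 and limma each called 0, with 1 at an unadjusted p below 0.05 in edgeR (Chn2, named after its value was seen).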

How the data were processed

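Right atrial RNA from 10 mice (4 control, 6 Tbx5 mutant) was sequenced, 1 library per mouse. The paper that describes the mice reports RNA-seq of left atrium, so its methods were used for the model and the call thresholds only. The deposited table holds raw counts per gene and a normalized signal that the authors made by dividing each library's counts by a size factor. The submitters' notes name FastQC, TopHat2 2.0.11, featureCounts, DESeq2 and mm10, and the annotation and counting strand are not given in the sources used here. The labels describe both an mRNA kit and a ribosomal RNA depletion kit. The deposited log2 fold change, p-value and score columns of the authors' own comparison were not used.

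Counts were fitted with edgeR 4.0.16 in R 4.3.3 (TMM scaling, filterByExpr with a minimum count of 10, glmQLFit and glmQLFTest with all 10 libraries and no covariate, Benjamini-Hochberg over 13084 genes), and fold changes carry a prior count of 0.125. A standard error is the size of the log2 change divided by the root of its F statistic. CPM uses TMM library sizes, and CPM per kilobase the longest GENCODE M21 transcript. The script was tested on simulated data. DESeq2 1.42.0, limma 3.58.1, length and GC trends (lowess span 0.4), labelled sex and single libraries left out were alternatives. The members and lists were chosen with earlier results of these data known. Named were all called members, those past the adjusted p of 0.05, the 10 with the highest control level per kilobase, and up to 12 called genes of the pathway list. A called gene of that list is not reported here. Robo1, Robo4, Sema5a, Epha7, Sema3g, Efnb2 and the members given by their reads were named after their values were seen. No pair of libraries within a group agreed within sampling noise (lowest chi-square per degree of freedom 3.78). Whether replicate numbers pair the mice was checked from deviations from the group means. The correlation was -0.047 to 0.0358 in 4 same-number pairs and -0.286 to 0.276 in the other 20. By Xist and Ddx3y each same-number pair joins mice of opposite sex, so these correlations cannot settle whether the numbers pair the mice. Each library is a separate mouse. Count floors cover counting error only, while the SDs and standard errors include variation between mice.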

Additional observations from a re-analysis of the deposited data

Results flagged for a closer look

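In 9 of 106 groups of values (53 tested members in 2 groups each) the highest or lowest mouse stood apart from the rest by Dixon's test, where chance alone gives about 5.3 at 1 in 20. In the control mice these were Efna2 in M2 (2.32 CPM, 14 reads, next 1.62), Sema3e in M1 (3.29 CPM, next 1.99), Sema3g in F2 (14.6 CPM, next 12.7) and Sema6c in M2 (9.60 CPM, the lowest, next 11.2). In the mice labelled mutant, M1 was the high value for Sema3a (21.4 CPM, next 14.5) and Sema6d (114 CPM, next 98.8) and the low one for Ephb2 (2.57 CPM, 15 reads, next 5.02). Mutant M2 was high for Efnb3 (7.57 CPM, 52 reads, next 3.60) and mutant F3 for Sema3b (15.6 CPM, next 12.5).

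Ntn1 moved in opposite directions in the labelled sexes. The mean in mutant minus that in control was -51.4 CPM in mice labelled male and 15.8 CPM in mice labelled female. This difference was not tested. Xist and Ddx3y contradict the sex labels of all 4 control mice and match those of the mutant mice, so each labelled sex compared mice of opposite sex. Grouped by these genes, Ntn1 was 244.2 and 233.8 CPM in control M1 and M2 against 197.8 to 215.9 in mutant F1, F2 and F3. In control F1 and F2 it was 197.5 and 186.7 CPM against 171.8 to 207.5 in mutant M1, M2 and M3.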

How the results depend on the processing

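Under 25 alternatives, the 25 named members had 622 values, of which 550 kept their direction and side of an adjusted p of 0.05, 56 kept the direction and lost that threshold, 7 gained it and 9, in 5 genes, changed sign. Efnb3, Epha2, Epha4, Sema3b and Slit3 kept their call in all of them. Members called were 11, then 6 with a fold change over 2 and 18 with no fold threshold, and those called lower were 8 and then 4 with a fold change over 2. Members called higher were 3, and became 7 with the length trend removed, 6 with the replicate block and the length trend removed, 5 in mice labelled female and 7 with no fold threshold. With single libraries left out, higher calls ran from 3 to 5, the highest without control M1, where lower calls were 7. Other pathway genes called were 13, and became 8 with a mean count of at least 50, 4 in mice labelled male and 6 with a fold change over 2. The changes of sign were in Ntn1, Sema6d, Ephb4 and Robo4, with log2 fold changes near 0, and in Robo1, which was 0.48. With the length trend removed Ntn1 was 0.0206 and Sema6d 0.0055. In mice labelled female Ntn1 was 0.1142 and Robo4 -0.0138, and in mice labelled male Ephb4 was -0.0427 and Robo1 -0.0135. By Xist and Ddx3y each of these labelled subsets compared mice of opposite sex. With the GC trend removed Robo4 was -0.0206, and with single libraries left out it ran from -0.0005 to 0.0648. The cause of these changes was not tested. With the replicate number as a block 10 members were called, 8 lower and 2 higher, with Ephb2 and Ntn3 lost and Plxna4 gained, and Ephb4 was -0.0018. The same-number mice had a mean correlation of deviations of -0.00712, against 0.00129 for the other pairs. On total counts 3 reads are 0.423 to 0.526 CPM, and on the scaled size of mutant M3 they are 0.817 CPM. Ntn3 and Ephb2 are the called members nearest this depth limit. Leaving out mutant M3, the shallowest library, gave 11 calls, but not the same 11. Ntn3 lost its call there (log2 fold change -0.761, edgeR quasi-likelihood adjusted p = 0.0536), Ephb2 kept its call and Plxna4 was called lower.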
